A study of Mus musculus with 35 samples.

Results

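The genes described here are 8 genes of the primitive endoderm, namely Gata4, Gata6, Sox7, Sox17, Foxa2, Dab2, Afp and Ttr. Every probe that the array design names for one of these genes was taken, which gave 8 of the 27962 names on the array and 16 of its 41174 gene probes. RNA from 30 mouse iPS clones, 2 ES lines (EB-3 and RF8) and 3 source cell populations was hybridized to Agilent mouse arrays with Cy3, on 35 arrays in all. The clones came from bone marrow PαS cells (CD45- Ter119- PDGFRα+ Sca-1+, mesenchymal stem cells), bone marrow osteo-progenitors (OP, sorted as PDGFRα- Sca-1-) or tail tip fibroblasts (TTF) of 6-week-old mice with a Nanog reporter. Each source was transduced with retroviruses for Oct3/4, Sox2, Klf4 and c-Myc (4F) or for the same factors without c-Myc (3F), and 5 clones of each of the 6 kinds were arrayed. Each source population had 1 array, and the 5 clones of a group are single picked colonies, which may share a culture of origin. The clones were kept on mitomycin-treated SNL feeder cells, so that an array of a clone can hold feeder RNA.

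The primitive endoderm is the layer of the blastocyst that lines the blastocoel and later gives the parietal and visceral endoderm of the yolk sac. Gata6 and Gata4 are zinc finger transcription factors of this lineage, Sox17 and Sox7 are HMG box factors of the same lineage, and Foxa2 is a forkhead factor of visceral and definitive endoderm. Dab2 is an endocytic adaptor protein on which visceral endoderm depends, whereas Afp (alpha-fetoprotein) and Ttr (transthyretin) are secreted by visceral endoderm and liver. In ES cultures the Nanog-positive state and the Gata6-positive state are known to oppose each other, and extraembryonic endoderm lines are known for Gata4, Gata6, Sox7 and Sox17.

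Levels are on a log2 scale on which the 75th percentile of each array is 0, so that a step of 1 is a doubling of the intensity. Levels of different genes come from different probes and are not set against each other. Of the 16 probes 13 were tested, from 7 of the 8 genes; the remaining 3 (Ttr and 2 of the 4 Sox17 probes) were in no group well above background on every array. Where a gene had several tested probes, the brightest over clones and ES lines was taken first, and the others are named as such. The probes of Sox17 and Dab2 that read as open frames are shown as examples of what was measured for a transcription factor and for a late marker. The Sox17 probe lies at chr1:4487401-4487460 on the minus strand of build mm7, and the Dab2 probe at chr15:6251189-6251632 on the plus strand, where its 60 bases are spread over 444 bases of the genome and therefore over more than 1 exon. Each read open in its first frame over 20 codons.
Sox17 probe: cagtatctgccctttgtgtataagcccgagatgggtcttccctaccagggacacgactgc
Dab2 probe: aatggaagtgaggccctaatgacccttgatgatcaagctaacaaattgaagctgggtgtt

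Over the 30 clones the Sox17 probe shown had a Pearson's r of 0.98 with the first Sox17 probe, and the Dab2 probe shown had an r of 0.96 with the first Dab2 probe. The other probes that were tested had an r of 0.93 for Gata4, 0.91 for Sox7, and 0.99 and 0.87 for Gata6, each with the first probe of the same gene. All tested probes of a gene thus ordered the clones much alike.

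All 7 measured genes were higher in the clones than in both ES lines. The comparison asked how far the clones resembled ES cells in these lineage genes, and by the first probe of each gene none of the 30 clones came down to the ES level. Sox17 lay between 0.79 and 4.26 in the clones (median 2.97) and at -4.85 in EB-3 and -2.87 in RF8. Gata6 lay between 1.20 and 5.16 (median 3.25) and at -2.77 and -2.74 in the same ES lines. Foxa2 lay between 1.10 and 5.81 (median 3.93) and at -2.99 and -0.94. For these 3 genes the lowest clone, 4F-OP-iPS #5 each time, was still above the higher ES line, by 3.66 for Sox17, 3.94 for Gata6 and 2.04 for Foxa2 on the log2 scale.

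Gata4, which acts beside Gata6, lay between -3.33 and 0.93 (median -1.21) in the clones and at -6.09 in EB-3 and -5.26 in RF8. Sox7 lay between -2.01 and 3.44 (median 0.60) and at -2.79 and -3.05. Dab2 lay between 0.75 and 3.55 (median 2.56) and at -3.45 and -0.66. Afp lay between -2.76 and 0.39 (median -1.40), at -3.45 in RF8, and was not well above background in EB-3, where its signal was -8.77. In Sox7 and Afp the lowest clone came closest to an ES line, since 3F-OP-iPS #4 lay 0.78 above EB-3 in Sox7 and 4F-PαS-iPS #4 lay 0.70 above RF8 in Afp. By the first probes clones and ES lines did not overlap in any of the 7 genes, while 9.99% of all tested probes had every clone above both ES arrays. By the second Sox7 probe they did overlap, since 3F-OP-iPS #4 was not well above background there and its signal of -5.82 was below RF8 at -5.14.

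**Figure D1:**
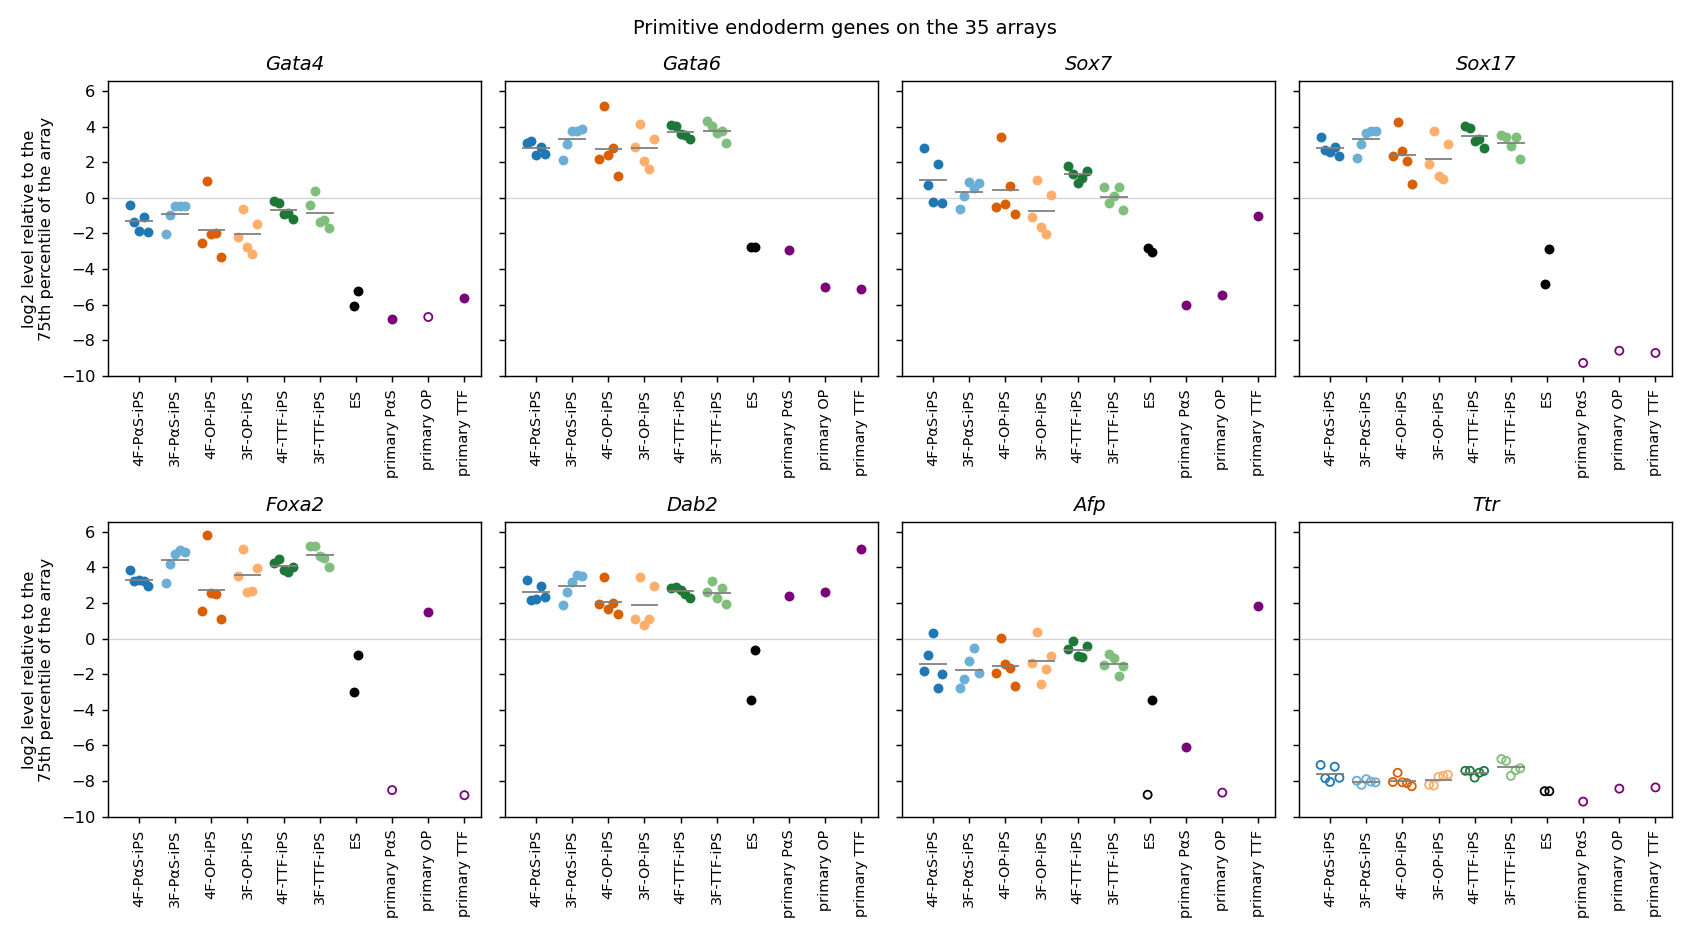
The log2 level relative to the 75th percentile of the array is plotted for the first probe of 8 primitive endoderm genes on the 35 arrays, with 1 point per array, filled where the probe was well above background and open where it was not, and with a grey line at the mean of each group of 5 clones. In all 7 measured genes every clone lies above both ES arrays, while Ttr is open on every array and Dab2 and Afp of the primary TTF lie above all clones.

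In the fit over all probes the 30 clones exceeded the ES lines by 6.73 in Sox17 (SE 0.60, adjusted p 2.18e-09), which is 106-fold, and by 5.95 in Gata6 (SE 0.58, adjusted p 7.76e-09), which is 61.7-fold. Both genes thus stood far above the ES level. The difference was 5.76 in Foxa2 (SE 0.69, adjusted p 1.79e-07) and 4.41 in Gata4 (SE 0.66, adjusted p 4.48e-06). It was 3.34 in Sox7 (SE 0.76, adjusted p 0.000656) and, of the late markers, 4.51 in Dab2 (SE 0.58, adjusted p 4.98e-07). For Afp the fit gave 4.78 (SE 0.80, adjusted p 2.11e-05) with the EB-3 signal as scanned, which was not well above background. With that signal at its bound the difference in Afp was at least 3.69, and the p-value does not belong to this bound. The fitted values are from limma with Benjamini-Hochberg adjustment over 27622 probes. With another background correction (normexp) the fit gave 1.88 in Gata4 and 1.82 in Afp. All 7 genes, of 7 tested, passed an adjusted p of 0.05 with at least a 2-fold difference. By the same rule 36.2% of all tested probes were called, 17.2% higher and 19% lower in the clones, and the median of all tested probes was -0.11, against 4.51 over the 7 genes when the EB-3 signal of Afp is set to its bound.

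The third Gata6 probe was at -5.95 in EB-3, not well above background in RF8, and between -5.23 and -2.16 in the clones. In probes that were not well above background on either ES array, only a bound can be given. By the second Gata6 probe the clones were at least 41.8-fold higher, and by the second Gata4 probe at least 12.7-fold higher. These further probes of Gata6 and Gata4 entered the test through the clone groups only. The fit used their dim ES signals as scanned, so no p-value is given for them. The bound sets the mean of the 30 clones against the dimmest signal that counted as well above background on each ES array. Ttr was not well above background on any of the 35 arrays.

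The 30 clones were scanned together and the ES arrays in other sessions, so that cell type and scanning session cannot be told apart here. Against RF8 alone 6 of 7 genes were called higher in limma, since Afp then differed by 2.12 with an adjusted p of 0.0557, and against EB-3 alone all 7 were, where 12.5% and 17.9% of all tested probes were called higher. The sizes moved with the ES line: Sox17 differed by 5.74 from RF8 and by 7.72 from EB-3, Foxa2 by 4.73 and 6.79, and Dab2 by 3.12 and 5.91, whereas Gata6 differed by 5.93 and 5.96. With 2 ES arrays the exact two-sided permutation test gave an unadjusted p of 0.00403 for each gene, which is the smallest this design allows.

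Because the clones grew on feeder cells, 18 markers of fibroblasts and feeder cells were read on the same arrays. Their summed level (log2) was 7.22 to 9.45 in the clones, 5.29 in EB-3, 7.79 in RF8, and 10.6, 10.9 and 9.84 in primary PαS, OP and TTF cells. In the clones 17 or 18 of the 18 markers were well above background, in EB-3 11 of 18 and in RF8 18 of 18. Of these markers 13 of 18 were called higher in the clones than in the mean of the ES lines, against 17.2% of all tested probes, and 3 of 18 against RF8 alone, against 12.5%. Over the 30 clones the summed fibroblast level had an r between -0.14 and 0.23 with the 7 primitive endoderm genes. The part of feeder RNA in the levels of these genes was otherwise not tested. Bulk arrays do not tell more expressing cells from more RNA per cell.

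The source cells themselves held little of most of these RNAs. Sox17 was not well above background in primary PαS, OP or TTF cells. Gata6 was at -2.94 in PαS, -5.00 in OP and -5.13 in TTF cells, and Gata4 at -6.79 in PαS and -5.62 in TTF cells, and it was not well above background in OP cells. For both genes all source arrays were below all 30 clones. The source arrays were scanned in another session than the clones, which cannot be told apart from the cell type. Sox7 was at -6.04, -5.43 and -1.02 in PαS, OP and TTF cells, the last of which lay within the range of the clones. Foxa2 was measured in OP cells, at 1.51, where it lay within the range of the clones, and was not well above background in PαS and TTF cells.

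Dab2 and Afp departed from this order. By its first probe Dab2 was at 2.40 in PαS and 2.64 in OP cells, within the clones, and at 5.03 in TTF cells, above all clones. By the second Dab2 probe PαS cells were at -4.01, below all clones, OP cells at -3.04, within them, and TTF cells at 0.84, above all clones. Afp was at 1.83 in TTF cells, again above all clones, at -6.09 in PαS cells, and not well above background in OP cells. By the first probes, 6 of the 7 tested genes in PαS, 5 in OP and 4 in TTF cells were below all clones, where 28.9%, 27.6% and 30% of all tested probes were. In TTF cells 2 of 7 were above all clones, as were 19.7% of all probes. The summed level of 12 blood cell markers was 9.43 in TTF cells, against 2.73 in PαS and 4.16 in OP cells, and their part in the Dab2 and Afp signals of TTF cells was not tested. Each source had a single array, and these comparisons have no replicate check.

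Between clones of different sources no difference in the 7 genes passed the test. PαS-iPS clones had more of 6 of the 7 genes than OP-iPS clones, with a median difference of 0.73 against 0.03 over all tested probes. The largest of these were 0.81 in Gata4 (SE 0.40, adjusted p 0.243) and 0.80 in Dab2 (SE 0.35, adjusted p 0.185), and by the second Dab2 probe the difference was 1.17 (SE 0.41, adjusted p 0.0949). OP-iPS clones had less of all 7 genes than TTF-iPS clones, with a median of -0.96 and values of -1.26 in Foxa2 (SE 0.42, adjusted p 0.30) and -1.14 in Gata4 (SE 0.40, adjusted p 0.329). PαS-iPS against TTF-iPS clones gave a median of -0.33, with -0.68 in Gata6 (SE 0.35, adjusted p 0.329) as the largest. By the call rule 0 of 7 genes passed in each of these comparisons in limma, where 1.6%, 0.0217% and 0.5% of all tested probes were called for PαS against OP, OP against TTF and PαS against TTF. At an unadjusted p under 0.05 there were 1, 4 and 0 of the 7 genes, in the same order, against 21.5%, 10.2% and 16.6% of all tested probes.

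A single clone bore on these counts. Without 4F-OP-iPS #2, Gata4, Sox7 and Foxa2 were called higher in PαS-iPS than in OP-iPS clones, by 1.15, 1.16 and 1.10, and Gata4, Gata6 and Foxa2 were called lower in OP-iPS than in TTF-iPS clones, by -1.48, -1.27 and -1.64. In these fits 4.59% and 1.05% of all tested probes were called. Clones of PαS and OP shared 3 slides. On slide 2 the PαS-iPS clone exceeded the mean of 3 OP-iPS clones in 7 of 7 genes (median 0.97), on slide 5 the PαS-iPS clones were higher in 6 of 7 (median 0.73), and on slide 3, which held 4F-OP-iPS #2, in 1 of 7 (median -0.84). On slide 6, shared by 3 OP-iPS clones and 1 TTF-iPS clone, the OP-iPS mean was lower in 7 of 7 genes (median -1.79). On slide 4, shared by 3 PαS-iPS clones made without c-Myc and 1 TTF-iPS clone made with it, the PαS-iPS mean was higher in 3 of 7 (median -0.02).

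No difference between clones made with and without c-Myc passed the test in the 7 genes. Between 3F- and 4F-clones the median differences were 0.44 for PαS, -0.20 for OP and -0.18 for TTF, and 0 of 7 genes were called by limma in each, where 0.0181%, 4.51% and 5.77% of all tested probes were. At an unadjusted p under 0.05 the count was also 0 of 7 in each, against 17.3%, 24.6% and 26.1% of all tested probes. Without 4F-OP-iPS #2, Foxa2 was called higher in 3F- than in 4F-OP-iPS clones, by 1.63 (adjusted p 0.0283), in a fit that called 4.51% of all tested probes, and Gata4, Sox17 and Dab2 turned direction, to 0.41, 0.24 and 0.13, without being called. The test of whether the effect of c-Myc differed between sources passed in 0 of 7 genes (interaction in limma, lowest adjusted p 0.718), against 0.532% of all tested probes. At an unadjusted p under 0.05 it was likewise 0 of 7, against 17.6% of all tested probes.

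Among the comparisons of 3F- with 4F-clones, Sox7 in TTF-iPS clones was the nearest to a difference. The 4F-TTF-iPS clones were at 1.81, 1.34, 0.81, 1.14 and 1.54, and the 3F-TTF-iPS clones at 0.63, -0.31, 0.08, 0.63 and -0.67. The groups did not overlap, as was the case for 18.5% of all tested probes in this comparison (1 of the 7 genes), while for PαS and OP the groups overlapped in all 7 genes and did not overlap in 2.43% and 5% of all probes, and the difference of -1.26 (SE 0.66) had an adjusted p of 0.229. The exact two-sided permutation test gave an unadjusted p of 0.00794, which is the smallest that 5 against 5 clones allow. By the second Sox7 probe the difference was -1.62 (SE 0.62, adjusted p 0.0932). With slides as a random block it was -1.11 by the first probe, with an adjusted p of 0.72, and 3F- and 4F-clones of a source were never on the same slide.

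The spread between clones was wide and was shared by the genes. The SD over the 30 clones was 1.21 in Sox7, 1.11 in Foxa2, 1.00 in Gata4, 0.88 in Gata6, Sox17 and Afp, and 0.76 in Dab2, against a median of 0.47 over all tested probes. Between the lowest and the highest clone Sox7 differed 43.9-fold, Foxa2 26.1-fold, Gata4 19.2-fold and Gata6 15.5-fold. In 4F-OP-iPS clones #1 to #5 Foxa2 was at 1.58, 5.81, 2.54, 2.52 and 1.10, and Gata6 at 2.20, 5.16, 2.42, 2.78 and 1.20. In the same clones Sox17 was at 2.33, 4.26, 2.65, 2.07 and 0.79, and Gata4 at -2.52, 0.93, -2.04, -1.95 and -3.33. Clone #2 was the highest and clone #5 the lowest of the 30 in these 4 genes, so that 1 group of 5 clones held both ends.

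Clone 4F-OP-iPS #2 was among the highest 5 clones in 7 of 7 genes, and was the highest in 5. The pluripotency gene Nanog was at -3.30 in this clone, Sox2 at -2.04, and Pou5f1 at -1.96, the lowest Pou5f1 of all clones. Clones 4F-OP-iPS #5 and 3F-OP-iPS #3 were among the lowest 5 in 7 of 7 genes, with Nanog at 1.83 and 2.86 and Pou5f1 at 3.71 and 3.47. Averaged over the 7 genes, the deviation from the median clone ranged from -1.88 to 1.77 in 4F-OP-iPS clones (SD 1.36, n = 5) and from -1.59 to 0.92 in 3F-OP-iPS clones (SD 1.09, n = 5). The SD was 0.30 in 4F-TTF-iPS, 0.44 in 3F-TTF-iPS, 0.43 in 4F-PαS-iPS and 0.69 in 3F-PαS-iPS clones (n = 5 each), and the difference in spread was not tested. The share of probes well above background on an array had an r of -0.43 with this mean deviation over the 30 clones, and its part was not tested.

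**Figure D2:**
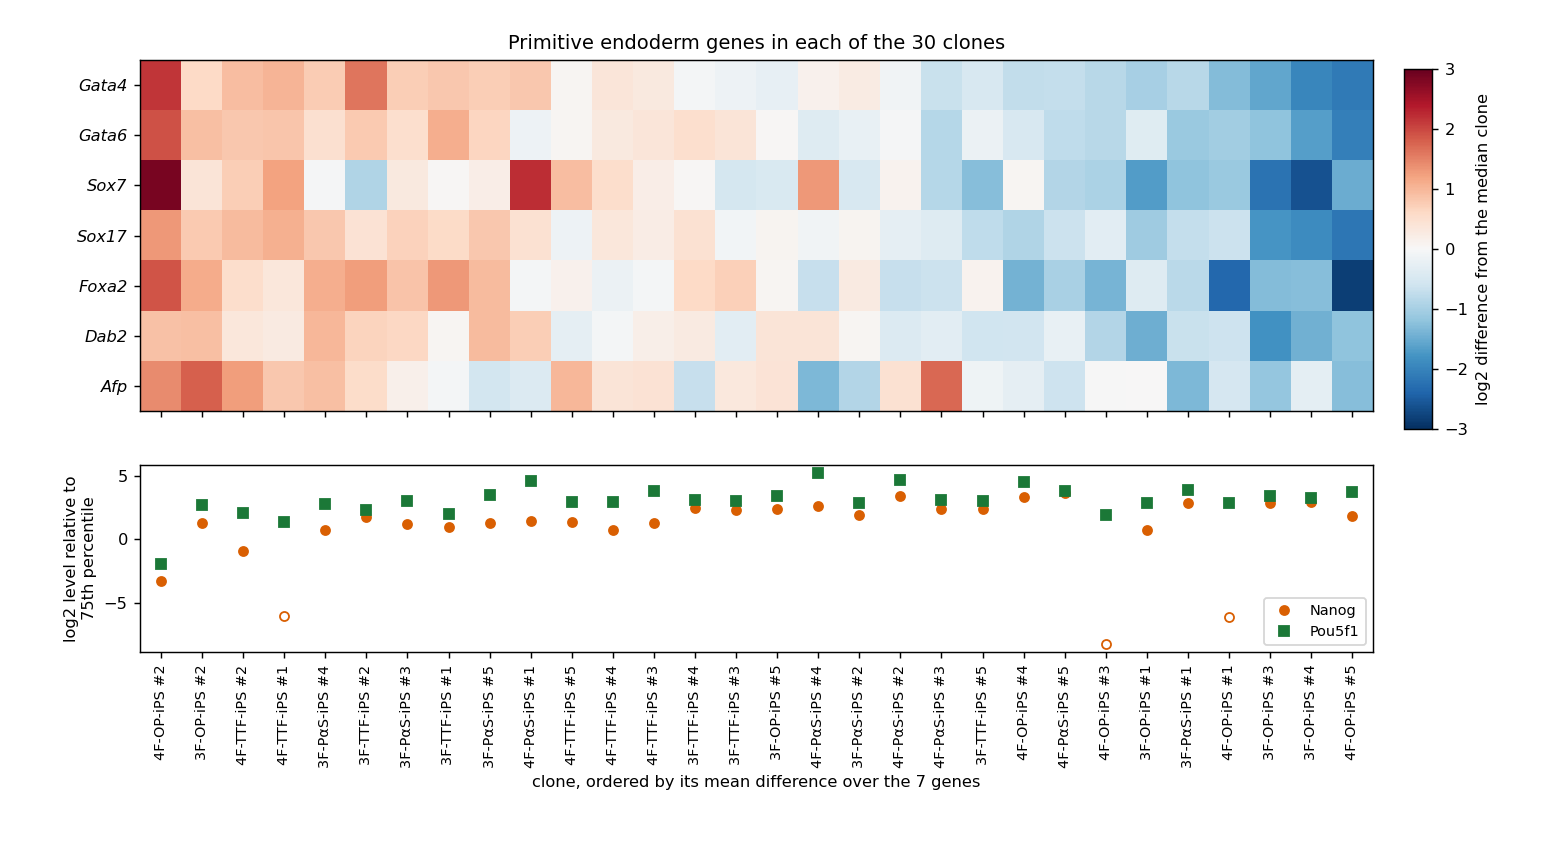
The upper panel gives the log2 difference of each of 7 primitive endoderm genes from the median clone (colour) in the 30 clones, ordered by the mean over the genes, and the lower panel gives the log2 levels of Nanog and Pou5f1 in the same clones (open where not well above background). The genes change colour together from 4F-OP-iPS #2 on the left to 4F-OP-iPS #5 on the right, and Afp follows less closely than the others.

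The genes varied together from clone to clone. Over the 30 clones Gata4 had a Pearson's r of 0.94 with Sox17 and 0.93 with Gata6, and Gata6 had an r of 0.92 with Foxa2 and 0.91 with Sox17. Dab2 was closest to Sox17, with an r of 0.90. All 21 pairs were above 0, with a median r of 0.77 and, by Spearman's rho, a median of 0.76. The 15 pairs without Afp ranged from 0.54 (Sox7 with Foxa2) to 0.94, whereas the 6 pairs with Afp ranged from 0.38 to 0.59.

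For comparison, the median r of Gata4 with all tested probes was 0.01, and its 99th percentile was 0.80, which 4 of the 6 other genes exceeded. The same count was 4 of 6 for Sox17, 3 of 6 for Gata6, Foxa2 and Dab2, 2 of 6 for Sox7 and 1 of 6 for Afp. The clones share slides and groups, and with every clone centred on the mean of its slide the median r of the 21 pairs was 0.85. Without the 2 clones farthest from the median it was 0.73. These correlations describe the 30 clones, and no test is attached to them.

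**Figure D3:**
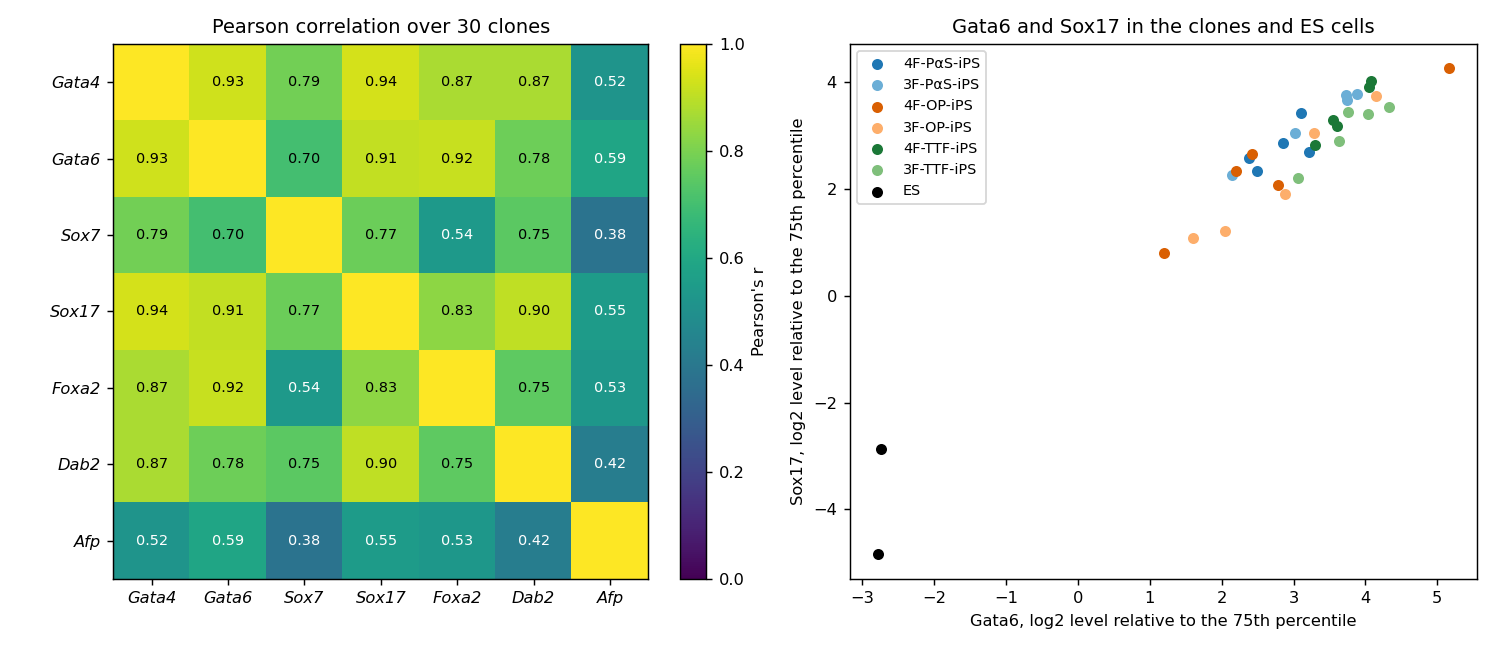
The left panel gives Pearson's r over the 30 clones for each pair of 7 primitive endoderm genes, and the right panel plots the log2 level of Sox17 against that of Gata6, with 1 point per array for the clones and ES lines. The pairs among Gata4, Gata6, Sox17 and Foxa2 lie between 0.83 and 0.94, and the clones form a single band that stands apart from both ES arrays.

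Against Nanog, Sox2 and Pou5f1 the direction was the opposite. In the 27 clones in which Nanog was well above background, all 7 genes had a negative correlation with Nanog, with r from -0.66 (Gata6) to -0.44 (Dab2) and rho from -0.67 to -0.44. Over all 30 clones, those with Nanog not well above background included, rho was weaker, from -0.52 to -0.28, and r of Nanog with Sox17 was -0.29. Without the 2 clones farthest from the median of Nanog r lay between -0.54 and -0.33, and within slides between -0.46 and -0.24. With Sox2 (27 clones) r lay between -0.64 and -0.39, within slides between -0.34 and -0.10, and rho over all 30 clones between -0.48 and -0.18. With Pou5f1 (30 clones) r lay between -0.55 and -0.22. Without the 2 farthest clones Sox7 was left at -0.07 with Sox2 and -0.02 with Pou5f1. In the remaining 3 clones Nanog was not well above background, and their mean deviations over the 7 genes lay on both sides of the median clone, at 0.79 in 4F-TTF-iPS #1, -0.74 in 4F-OP-iPS #3 and -1.09 in 4F-OP-iPS #1.

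Genes outside the set were then sought whose levels over the 30 clones were most like these. The closest to Gata4 were Pdgfra (r = 0.96), the PDGF receptor that marks primitive endoderm in the blastocyst, Hkdc1 (r = 0.95), a hexokinase family gene, and Flrt3 (r = 0.94), a membrane protein of the FGF pathway. Flrt3 was also among the 3 closest genes of Gata6 (r = 0.97) and Foxa2 (r = 0.93), by another probe. Gata6 was further close to Ephb3, an ephrin receptor (r = 0.95), and to the ligand Bmp2 (r = 0.94), and Foxa2 to Rnf24 (r = 0.93) and Sec24d (r = 0.93), a coat protein of secretory vesicles.

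The closest to Sox17 were Scube2 (r = 0.96), Pthr1 (r = 0.95), the parathyroid hormone receptor of parietal endoderm, and Lamb1-1 (r = 0.95), a laminin chain of the basement membrane. Among the genes closest to Dab2 were Fgf10 (r = 0.91) and Islr2 (r = 0.91), and Sox7 was closest to Mettl9 (r = 0.92), the unnamed transcript NAP108462-1 (r = 0.90) and Man1a2 (r = 0.90). No gene was as close to Afp, for which Tanc2 came first (r = 0.75), before Mia3 (r = 0.74) and Agtr1a (r = 0.71). Pdgfra is also the receptor by which PαS cells were sorted, and its level was 0.98 in primary PαS, 1.58 in primary OP and 0.59 in primary TTF cells, on single arrays. The OP value was thus above the PαS value, although OP cells were sorted as PDGFRα-. Pthr1, named Pth1r in the lists below, was at 0.24 in primary PαS, 4.55 in primary OP and 0.54 in primary TTF cells. The OP value lay within the range of the clones (2.62 to 6.50). Pdgfra differed by 0.65 between PαS-iPS and OP-iPS clones (SE 0.47, adjusted p 0.437).

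Further genes of the yolk sac endoderm were read from lists. Of 15 genes of parietal endoderm and basement membrane 14 were higher in the clones than in the ES lines, against 17.2% of all tested probes. The median over the list was 3.99 (2.77 against RF8 alone). Type IV collagen and laminin are what parietal endoderm lays down as Reichert's membrane. Col4a2 was higher by 6.47 (SE 0.57, adjusted p 1.8e-09) and Pth1r by 6.12 (SE 0.59, adjusted p 6.6e-09), and against RF8 alone by 5.40 and 5.39, whereas the adhesion receptor Cd44, which was not well above background in EB-3, was higher by 1.36 against RF8 alone (SE 0.50, adjusted p 0.0323). Stra6 did not pass (0.85, adjusted p 0.115), and was called higher against RF8 alone (by 2.84) but lower against EB-3 alone (-1.14). Against RF8 alone 14 of 15 were called higher, with Stra6 and without Nid1, and against EB-3 alone 12 of 15, where 12.5% and 17.9% of all tested probes were called higher.

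Of 11 tested regulators and signalling genes of extraembryonic endoderm 6 were higher and 1 was lower, against 17.2% and 19% of all tested probes. Ihh, a hedgehog ligand of visceral endoderm, was not well above background on either ES array and was at least 31.2-fold higher in the clones. Bmp2, which was not well above background in EB-3, was higher by 3.49 against RF8 alone (SE 0.97). The homeobox gene Hhex was lower, at -1.37 (adjusted p 0.022), and was not called against either ES line alone. Against RF8 alone and against EB-3 alone 6 of 11 were higher, where 12.5% and 17.9% of all probes were.

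The list of uptake and secretion genes of visceral endoderm was mixed, with 6 of 16 tested genes higher and 4 lower, against the same 17.2% and 19%. Fgb, a fibrinogen chain, was not well above background on either ES array, and was at least 114-fold higher in the clones. Cubn, an endocytic receptor, was higher by 5.26 (SE 0.73, adjusted p 1.75e-06), and Dkk1, a secreted Wnt antagonist, by 3.17 (SE 0.92, adjusted p 0.00535), but by 1.16 against RF8 alone (adjusted p 0.468). Lower were Lefty1, a Nodal antagonist that ES cells also express, at -4.99 (adjusted p 0.000115), the vitamin E carrier Ttpa at -2.89 (adjusted p 0.00147, and 0.0614 against RF8 alone), and Apob, a lipoprotein (adjusted p 0.00207), which was well above background on both ES arrays and in 2 of the 30 clones. Against RF8 alone 3 were higher (12.5% of all probes) and 2 lower, and against EB-3 alone 4 (17.9%) and 3.

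Other lineages gave the background of these counts. Of all tested probes 17.2% were called higher and 19% lower in the clones. Against RF8 alone and EB-3 alone 12.5% and 17.9% were higher. Of 9 tested genes that were put in the mesendoderm and definitive endoderm list 1 was higher (Gata3, by 2.47, and not called against RF8 alone) and 2 lower, with a median of 0.09. Of the lower ones Fgf8 was at -2.60 and not called against EB-3 alone, and Mesp1, well above background in 16 of the 30 clones, was not called against RF8 alone. Of 9 trophectoderm genes 7 were higher, with a median of 2.79, led by the keratin Krt7 (by 5.03, or 3.56 against RF8 and 6.51 against EB-3 alone) and the transcription factors Elf5, which was not well above background in EB-3, and Esx1 (by 2.93), neither of which was called against RF8 alone. Against RF8 alone and against EB-3 alone the trophectoderm count was 3 of 9. Of 10 pluripotency genes 2 were lower, Zfp42 at -5.34 and Tdgf1 at -3.35, the latter not called against RF8 alone, with a median of -1.96. Of 7 tested blood cell markers 3 were higher and 1 lower.

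**Figure D4:**
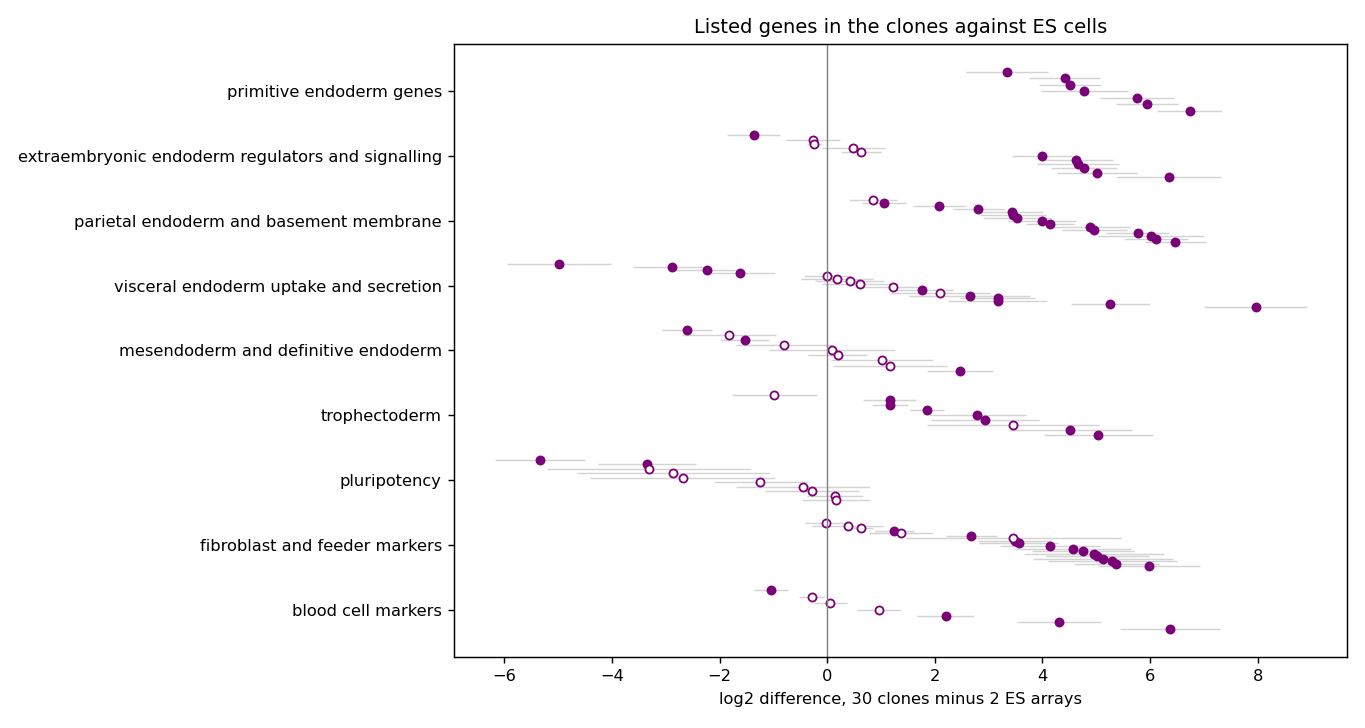
The log2 difference between 30 clones and 2 ES arrays is plotted for each tested gene of 9 lists, with 1 point per gene, the standard error as a bar, and filled points where the gene was called. All 7 primitive endoderm genes and all 15 parietal endoderm genes lie to the right, with 7 and 14 of them called. The mesendoderm list is spread around 0, and 13 of 18 genes of the fibroblast list are called, to the right. Of all tested probes 17.2% were called higher in the clones.

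Within the clones the lists differed in how they followed Sox17. The median r with Sox17 over the 30 clones was 0.86 for the 15 parietal endoderm genes and 0.62 for the 11 regulators, with 11 and 6 genes above 0.5, as were 9.76% of all tested probes. It was 0.11 for visceral endoderm uptake and secretion (2 of 16 above 0.5). The medians were -0.10 for mesendoderm, -0.26 for trophectoderm, -0.22 for pluripotency (where Klf4 was at 0.47), 0.00 for the 18 fibroblast and feeder markers and -0.05 for blood cell markers, with 0 genes above 0.5 in each. The keratins Krt8 (r = 0.30) and Krt18 (r = 0.22) and Cd44 (r = -0.28) were the parietal endoderm genes that followed Sox17 least.

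Of the 42 tested genes of the 3 endoderm lists 3 were called for PαS against OP, 3 for PαS against TTF and 1 for OP against TTF, and for 3F against 4F clones 0 were called in PαS, 3 in OP and 1 in TTF. In the same order 1.6%, 0.5%, 0.0217%, 0.0181%, 4.51% and 5.77% of all tested probes were called. PαS-iPS clones were higher than OP-iPS clones in Ihh (by 3.15, adjusted p 0.00651), Fgfr2 (by 1.30, adjusted p 0.0189) and Apom (by 1.75, adjusted p 0.0252), and higher than TTF-iPS clones in Ihh (by 2.34, adjusted p 0.0446) and Apom (by 1.83, adjusted p 0.0339). Thbd, thrombomodulin of parietal endoderm, was lower in PαS-iPS than in TTF-iPS clones (-1.75, adjusted p 0.0486), and Fgb was lower in OP-iPS than in TTF-iPS clones (-3.08, adjusted p 0.0476). 3F-OP-iPS clones were higher than 4F-OP-iPS clones in Hhex (by 2.08, adjusted p 0.00491), Apoe (by 1.78, adjusted p 0.0466) and Apoc2 (by 1.74, adjusted p 0.0485). Nid1, a basement membrane protein, was lower in 3F-TTF-iPS than in 4F-TTF-iPS clones (-1.31, adjusted p 0.0187). None of these genes belongs to the 8.

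RefSeq promoter windows (GRCm38.p6, 250 bases before to 50 after a start) were given for 3 of the 8 genes, Foxa2, Dab2 and Afp, with 6 windows in all. They were searched on both strands for AGATAA and TGATAA, the core that GATA factors are known to bind, because Foxa2 and Dab2 moved with Gata4 and Gata6. A match was found in 2 of the 6 windows, against 18.6% of 32851 promoter windows. The matches upstream of a start lay 183 bases before a Foxa2 start, at chr2:148045630-148045659 with the gene on the minus strand, and 179 bases before a Dab2 start, at chr15:6299598-6299627 with the gene on the plus strand. The motif is in capitals, and a match is not evidence of binding.
Foxa2 window: ctgttagccttgAGATAAtattaactttgt
Dab2 window: tgatttttcttcTGATAAcaggaataggag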

How the data were processed

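Total RNA from each sample was labelled with Cy3 and hybridized to 1 Agilent mouse array. The deposited scanner files hold intensities from which the authors' Feature Extraction software had subtracted the background, and log2 of these, less the 75th percentile of the array, was used. Log2 values that the authors made in GeneSpring GX served as an alternative. Control spots and outlier spots (54 to 152 per array) were left out and replicate spots averaged. Probes well above background made up 56.6% to 71.2% per array, and the highest correlation between arrays was 0.991. The number of arrays limits the precision.

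A probe entered the test if 1 or more of 7 groups (6 clone groups and ES) had it well above background throughout, in 1 fit with limma 3.58.1 in R 4.3.3. A probe was called at an adjusted p (Benjamini-Hochberg over 27622 probes) under 0.05 and a difference of at least 2-fold. On simulated data with independent noise, 200 of 27622 probes were changed by 3 on the log2 scale. The fit recovered 178 for clones against ES cells, with 8 false calls. No smaller changes were simulated, so this does not tell how often smaller differences between clone groups would be found. Permutation tests (two-sided, exact where a group had fewer than 10 clones, otherwise 100000 resamples) and correlations were run in Python 3.11.15 with scipy 1.17.1.

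The genes named are the 8 genes with all probes, the 3 genes closest to each measured one by Pearson's r over the clones, up to 3 called genes in each direction per list and comparison, and Nanog, Sox2 and Pou5f1. Pdgfra between clone groups, Stra6, Krt8 and Krt18 were named after their values were seen. Some genes that this rule names are not reported here. The genes and lists were chosen with earlier results of these data known. Probe names and mm7 positions are those of the array design, of which Fgf4 and Spink3 of the lists were not matched by name. The p-values measure the spread between clones. Clone numbers did not pair the samples: the deviations of like-numbered clones correlated over 0.1 in 16 of 75 pairs. The alternatives were normexp background correction (offset 50), quantile normalization, the authors' table, no filter on dim probes, a floor under dim signals, the next brightest probe, no fold minimum, the slide or clone number as a block, permutation tests, and each clone or ES array left out. The counts of the lists against 1 ES array were added after the data were seen.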

Additional observations from a re-analysis of the deposited data

How the results depend on the processing

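All 7 genes stayed called between clones and ES lines under each alternative that kept both ES arrays, and for the 6 genes measured in both ES lines the first probes differed by 1.88 (Gata4, after normexp correction) to 6.80 (Sox17). Afp was at 1.82 after normexp correction and was lost without EB-3 (2.12, adjusted p 0.0557 in limma), the array on which it was not well above background. For clone groups 0 of 7 genes were called under normexp correction, quantile values, the authors' table, no filter, a floor, other probes, no fold minimum and slide blocks. With the clone number as a replicate block the count was also 0 in each comparison. With an unadjusted permutation p under 0.05 and at least 2-fold, 2 genes passed for OP against TTF (Gata4 and Foxa2), 1 for 3F against 4F PαS (Foxa2) and 1 for 3F against 4F TTF (Sox7). Without the fold minimum it was 4, 1 and 3, and 1 each for PαS against OP and PαS against TTF. No share of all tested probes is given for the permutation test. By an unadjusted limma p under 0.05, without a fold minimum, 10.2%, 17.3%, 26.1%, 21.5% and 16.6% of all tested probes passed, in the same order. Leaving out 1 array gave 0 to 3 genes for PαS against OP, 0 to 3 for OP against TTF and 0 to 1 for 3F against 4F OP (Foxa2, by 1.63), the higher counts each without 4F-OP-iPS #2.

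Directions turned in differences between clone groups, none of which was called before or after. For 3F against 4F OP, Gata6 was -0.17 with slides as a random block, and for 3F against 4F TTF, Gata4 was 0.054 with that block and 0.42 by the next brightest probe. Leaving out 1 array gave ranges from -0.42 to 0.0033 for Afp (PαS against OP), from -0.26 to 0.13 for Sox7 (PαS against TTF) and from -0.63 to 0.14 for Afp (3F against 4F PαS). For 3F against 4F OP they were -0.65 to 0.41 for Gata4, -0.35 to 0.64 for Gata6, -0.63 to 0.24 for Sox17, -0.60 to 0.13 for Dab2 and -0.13 to 0.67 for Afp. For 3F against 4F TTF they were -0.50 to 0.021 for Gata4, -0.095 to 0.22 for Gata6 and -0.24 to 0.077 for Dab2. The cause was not tested. The median r of the 21 pairs lay between 0.73 and 0.85 under all 5 alternatives. Ttr and other probes not well above background limit what can be said of low signals.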
